A study of Mus musculus with 12 samples.

Results

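Cux2, Cux1, Rasgrf2, Rorb, Lamp5 and Calb1 are 6 genes used as markers of neurons in the upper layers of the cerebral cortex. They were taken by name from a count table of 47069 mouse genes, and all 6 were among the 17286 genes with enough counts to be tested. The libraries were made from frontal cortex of male C57BL/6 mice, 12 libraries in 4 groups of 3. Wild-type mice and mice labelled HDAC2(loxP,loxP), CamKIIa-Cre(+,-) each received vehicle or chronic clozapine, an antipsychotic drug, at 10 mg/kg. CamKIIa-Cre acts in forebrain excitatory neurons, so bulk cortex of such mice keeps intact Hdac2, a histone deacetylase gene, in interneurons, glia and vessel cells. The labels used here do not give the age of the mice, the length of treatment or the number of mice per library. Cux2 was put forward because its clozapine effect differed between genotypes in an earlier analysis of the same libraries. The list of 6 markers was put forward for its values in the mice labelled HDAC2(loxP,loxP), clozapine against vehicle. Values in these contrasts are therefore a description. Contrasts on which those choices do not bear are the only ones tested for the 6 genes.

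The cortex is built of layers whose excitatory neurons differ in their targets. Neurons of layers 2 and 3 project mainly within the cortex and across the corpus callosum, layer 4 neurons receive thalamic input, and neurons of layers 5 and 6 project to subcortical structures and the thalamus. Cux1 and Cux2 encode homeodomain transcription factors that mark neurons of layers 2 to 4 and shape their dendrites and spines. In bulk tissue, fewer cells of a type and less RNA per cell cannot be told apart.

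Total counts were 23408372 to 28069638 per library. The 12 pairs of replicates gave a chi-square of 4.38 to 10.2 per gene, above 1, so libraries of a group differed by more than counting error. Hdac2 was at 63.4 to 76.6 CPM (counts scaled to library size) in the 12 libraries, with group means of 69.7 in wild-type vehicle, 73.8 in wild-type clozapine, 75.1 in knockout vehicle and 71.9 in knockout clozapine. Hdac2 RNA was therefore not lower in the libraries labelled as knockout, which are called the labelled knockout here, and the counts per gene do not show whether the loxP-flanked exons are present. The excitatory neuron genes summed to between 8619 and 10170 CPM in every library. Of the markers of neighbouring regions, 3 tested olfactory bulb genes summed to 4.84 to 9.02 CPM and 3 hippocampal granule neuron genes to 10.4 to 18.2 CPM, while 9 striatal projection neuron genes summed to 280.2 to 375 CPM and 3 claustrum genes to 42.4 to 93.7 CPM. Eomes and Tbx21, defining genes of olfactory bulb projection neurons, had at most 8 and 14 counts.

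The RefSeq windows around the start sites (GRCm38.p6, 250 bases before and 50 after) matched 5 of the 6 genes with 8 windows. The 250 bases before the start are shown for the 2 start sites of Cux2, for Rasgrf2, which had the highest correlation with Cux2 among the other 5, and for Cux1 and the upstream start of Rorb, a pair that varied together over the libraries. Capitals mark matches to ATCGAT (a core sequence bound by CUX proteins), CCAAT (the CCAAT box), CACGTG (an E-box), GGGCGG (the GC box) or TATAAA (the TATA box), searched on both strands. All windows lie on the minus strand and are written 5′ to 3′ in the direction of transcription, at chr5:122049852-122050101 and chr5:122047826-122048075 for Cux2, chr13:92131829-92132078 for Rasgrf2, chr5:136565982-136566231 for Cux1 and chr19:19111197-19111446 for Rorb.
Cux2 upstream start: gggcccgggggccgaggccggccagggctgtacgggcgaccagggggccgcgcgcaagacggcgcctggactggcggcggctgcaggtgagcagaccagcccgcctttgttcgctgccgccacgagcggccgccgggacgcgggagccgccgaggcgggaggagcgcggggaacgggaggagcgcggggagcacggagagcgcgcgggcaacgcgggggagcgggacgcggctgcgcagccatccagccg
Cux2 downstream start: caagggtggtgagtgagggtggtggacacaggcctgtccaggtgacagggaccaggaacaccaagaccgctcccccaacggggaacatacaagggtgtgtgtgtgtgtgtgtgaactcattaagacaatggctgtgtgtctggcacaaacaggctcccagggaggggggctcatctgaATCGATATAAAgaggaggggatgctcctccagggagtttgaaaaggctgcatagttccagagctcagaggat
Rasgrf2: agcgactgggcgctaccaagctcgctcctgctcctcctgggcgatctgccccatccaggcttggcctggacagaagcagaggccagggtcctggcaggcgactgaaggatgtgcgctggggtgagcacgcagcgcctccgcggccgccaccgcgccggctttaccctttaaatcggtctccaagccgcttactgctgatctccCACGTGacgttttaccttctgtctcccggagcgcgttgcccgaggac
Cux1: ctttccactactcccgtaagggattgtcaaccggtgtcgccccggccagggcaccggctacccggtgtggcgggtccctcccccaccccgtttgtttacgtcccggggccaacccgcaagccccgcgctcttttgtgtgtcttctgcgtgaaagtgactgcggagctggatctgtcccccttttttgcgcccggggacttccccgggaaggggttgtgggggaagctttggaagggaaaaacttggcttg
Rorb upstream start: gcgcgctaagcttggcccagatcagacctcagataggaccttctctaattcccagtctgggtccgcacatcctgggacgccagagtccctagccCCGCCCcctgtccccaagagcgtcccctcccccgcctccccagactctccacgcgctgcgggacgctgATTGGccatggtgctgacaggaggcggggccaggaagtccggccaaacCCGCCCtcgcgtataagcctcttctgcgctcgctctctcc

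The 2 Cux2 start regions differ in composition. The window at the upstream start has 80.3% G and C and 48 CpG dinucleotides, with a lower GC content in 99.1% of all RefSeq windows, and holds none of the 5 motifs. The window at the downstream start has 56.7% G and C and 4 CpG dinucleotides. It holds ATCGAT starting 72 bases before the start site (-72) and TATAAA at -67, which share 1 base. ATCGAT occurs in 0.926% of 32841 windows of the same length and TATAAA in 13.6%. The Rasgrf2 window has 66.0% G and C and CACGTG at -47, found in 7.15% of windows. The Cux1 window has 65.0% G and C and none of the motifs. In the Rorb window the GC box, found in 35.7% of windows, is on the reverse strand at -156 and -40, and CCAAT, found in 37.4%, is on the reverse strand at -88. Counts per gene do not separate the start sites. These matches are a description of the sequence.

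Cux2 (ENSMUSG00000042589.18, chromosome 5, 121856366 to 122050102, minus strand, GRCm38) is the paralogue of Cux1 and is enriched in layers 2 to 4. Wild-type libraries held 208, 200.5 and 175 CPM of Cux2 with vehicle and 169, 152 and 155 CPM with clozapine. Every clozapine library was below every vehicle library. Labelled knockout libraries held 162, 158 and 148 CPM with vehicle and 197, 190.3 and 195 CPM with clozapine, and every clozapine library was above every vehicle library.

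The Cux2 group means formed a high and a low pair. Wild-type vehicle was at 194 ± 17.2 CPM (SD, n = 3) and labelled knockout clozapine at 194 ± 3.42. Wild-type clozapine was at 159 ± 9.16 CPM and labelled knockout vehicle at 156 ± 7.57. Neither pair of neighbours in this order differed beyond its spread, and each of the 6 low libraries was below each of the 6 high ones.

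On the log2 scale, the Cux2 estimate for clozapine against vehicle was -0.29 (SE 0.06) for wild-type mice and 0.32 (SE 0.06) for the labelled knockout. The genotype estimate (labelled knockout against wild type) was -0.32 (SE 0.06) under vehicle and 0.29 (SE 0.06) under clozapine. The interaction, meaning the difference between the 2 clozapine effects (labelled knockout less wild type), was 0.61 (SE 0.09). Cux2 was chosen on these contrasts, so no test is given. Groups that lie lower without overlap in wild type and higher without overlap in the labelled knockout were found for 213 genes, 1.23% of those tested, and the opposite pattern for 126, or 0.729%. Averaged over treatments, the Cux2 difference between genotypes was -0.01 (SE 0.05, 95% interval -0.11 to 0.08, adjusted p = 0.889, edgeR's quasi-likelihood test). The adjustment was that of Benjamini and Hochberg over all genes, of which 10.5% passed in this comparison. Averaged over genotypes, the Cux2 estimate for clozapine against vehicle was 0.01 (SE 0.05). That average contains the labelled knockout contrast for which the marker list was put forward, so no test of it is given.

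Cux2 has a higher GC content, 58.4% over its exons, than 91.4% of genes. The trend of expression with GC content varied between libraries, from a Spearman correlation over genes of -0.267 in wild-type clozapine 3 to 0.214 in labelled knockout clozapine 3, and over the 12 libraries Cux2 correlated with that trend at r = 0.40. Once a smooth trend with exonic length and GC was removed from every library, the Cux2 interaction was 0.47 (SE 0.10).

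**Figure D1:**
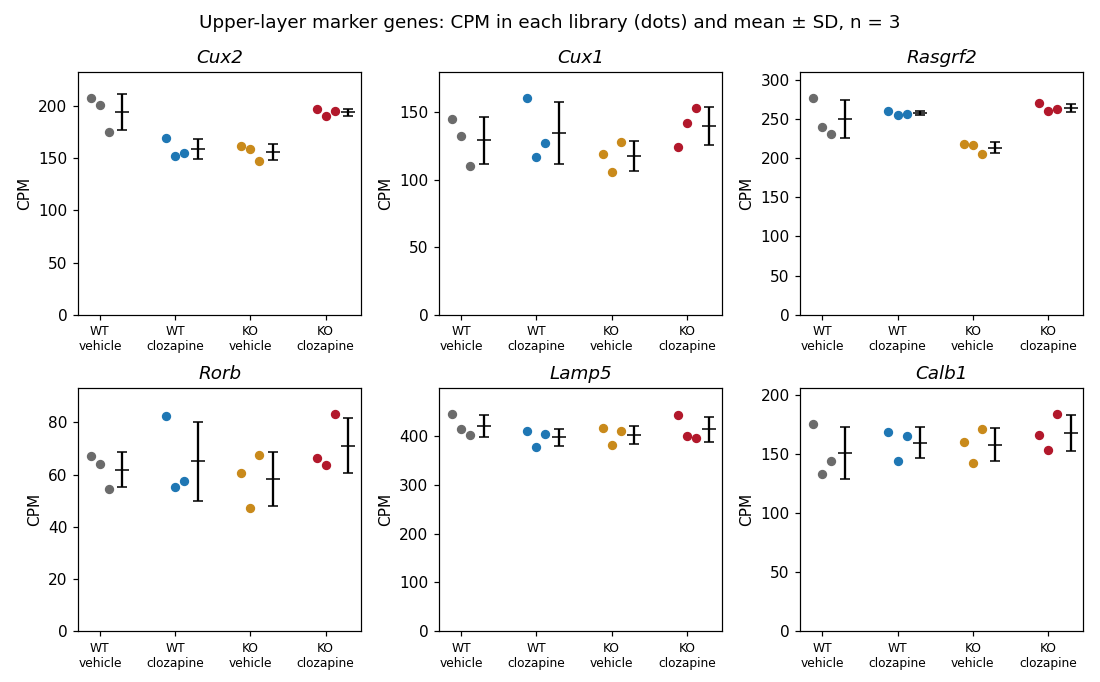
CPM (y axis, linear from 0) of each of the 6 genes in the 12 libraries, by group (x axis). Dots are libraries and the bar beside them is the mean with its SD (n = 3). Cux2 libraries fall into a high pair of groups (175 to 208 CPM) and a low pair (148 to 169 CPM), while the groups of Cux1, Rorb, Lamp5 and Calb1 overlap.

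Rasgrf2 (ENSMUSG00000021708.16, chromosome 13, 91880400 to 92131656, minus strand) encodes a calcium-responsive guanine nucleotide exchange factor for Ras and Rac and is a marker of layer 2 and 3 neurons. Its CPM values under vehicle were 277, 240.3 and 231 for wild type, then 218, 217 and 205 for the labelled knockout. With clozapine they were 260.2, 255 and 257 for wild type, then 270.1, 261 and 262 for the labelled knockout. The labelled knockout under vehicle was thus the low group, and its libraries lay below all 9 others. The 3 wild-type clozapine libraries lay within the range of wild-type vehicle.

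As log2 estimates, Rasgrf2 differed by 0.31 (SE 0.06) between clozapine and vehicle in the labelled knockout and by -0.23 (SE 0.06) between genotypes under vehicle, both without overlap. These estimates share the vehicle-treated labelled knockout libraries. Clozapine in wild type gave 0.04 (SE 0.06, interval -0.08 to 0.17, adjusted p = 0.839, edgeR quasi-likelihood test). Averaged over treatments, the genotypes differed by -0.09 (SE 0.04, interval -0.18 to -0.01), which did not pass after adjustment over all genes (edgeR, adjusted p = 0.167). The interaction was 0.26 (SE 0.08).

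Cux1 (ENSMUSG00000029705.17, chromosome 5, 136248135 to 136567490, minus strand) encodes the more widely expressed CUX factor. The wild-type libraries held 145, 132 and 111 CPM of Cux1 with vehicle and 161, 117 and 127 with clozapine. Those of the labelled knockout held 119, 106 and 128 CPM with vehicle and 125, 142 and 153 with clozapine. The groups overlapped in all 4 comparisons. The Cux1 difference between clozapine and vehicle in wild type was 0.06 on the log2 scale (SE 0.14, interval -0.24 to 0.37, adjusted p = 0.917) and the average genotype difference -0.04 (SE 0.10, interval -0.26 to 0.17, adjusted p = 0.845), both by edgeR.

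Rorb (ENSMUSG00000036192.15, chromosome 19, 18930605 to 19111196, minus strand) encodes a retinoid-related orphan receptor characteristic of layer 4. It ranged from 54.3 to 67.2 CPM in wild-type vehicle, 55.3 to 82.6 in wild-type clozapine, 47.0 to 67.4 in labelled knockout vehicle and 63.8 to 83.2 in labelled knockout clozapine, with overlap in all 4 comparisons. Its coefficient of variation over the 12 libraries, 16.7%, was the highest of the 6 genes, and that of Lamp5, 5.02%, was the lowest. The Rorb difference in wild type under clozapine was 0.08 (log2, SE 0.19, interval -0.35 to 0.51, adjusted p = 0.926, edgeR), and the average genotype difference 0.02 (SE 0.13, interval -0.28 to 0.33, adjusted p = 0.945).

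Lamp5 (ENSMUSG00000027270.14, chromosome 2, 136052239 to 136069917, plus strand) encodes a lysosome-associated membrane protein of neurons, found in layer 2 and 3 neurons and in a class of interneurons. Its levels were 445, 416 and 403 CPM in wild-type vehicle, 411, 378 and 405 in wild-type clozapine, 416, 382 and 410 in labelled knockout vehicle, and 444, 401 and 396 in labelled knockout clozapine. All groups overlapped. Clozapine in wild type gave -0.08 (log2, SE 0.06, interval -0.21 to 0.04, adjusted p = 0.654) and the average genotype difference was 0.00 (SE 0.04, interval -0.09 to 0.08, adjusted p = 0.967, edgeR). The wild-type Lamp5 interval lies above the Cux2 estimate of -0.29, but that estimate is part of the interaction for which Cux2 was chosen. The difference between the 2 genes was not tested.

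Calb1 (ENSMUSG00000028222.2, chromosome 4, 15881264 to 15908064, plus strand) encodes calbindin, a calcium-binding protein of layer 2 and 3 neurons and of some interneurons. It ranged from 133 to 175 CPM in wild-type vehicle, 144 to 168 in wild-type clozapine, 143 to 171 in labelled knockout vehicle and 153 to 184 in labelled knockout clozapine, again with overlap throughout. Clozapine in wild type gave 0.08 (log2, SE 0.11, interval -0.15 to 0.31, adjusted p = 0.840) and the average genotype difference was 0.07 (SE 0.07, interval -0.09 to 0.23, adjusted p = 0.612, edgeR).

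**Figure D2:**
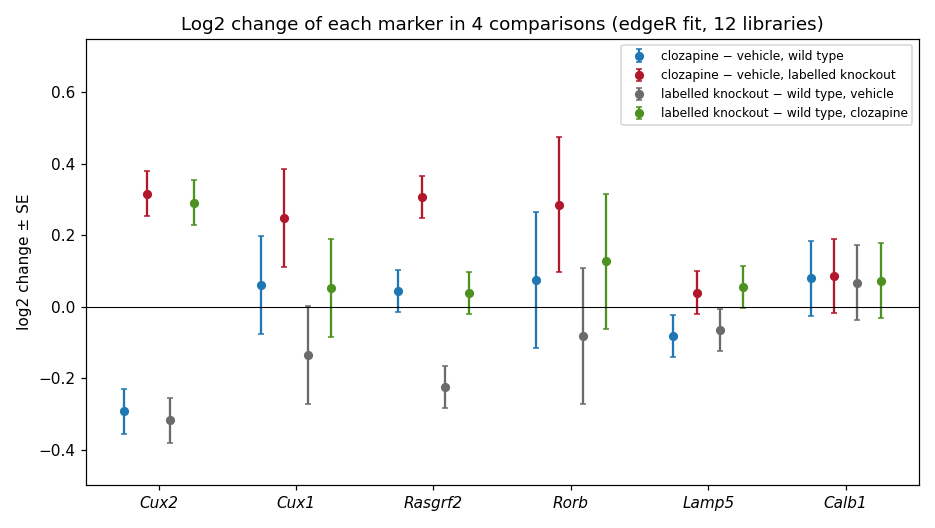
Log2 change with its SE (y axis) of each of the 6 genes (x axis) in 4 comparisons, from 1 edgeR fit over 12 libraries. For clozapine in wild type and then in the labelled knockout, Cux2 lies at -0.29 and 0.32, Rasgrf2 at 0.04 and 0.31, and Calb1 at 0.08 and 0.09.

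Set side by side, the estimates for clozapine in the labelled knockout were above 0 for all 6 genes, with a median of 0.27 against -0.002 over all genes tested, of which 49.3% were above 0. The marker list was put forward for its values in this contrast, so these counts were shaped by the choice and are a description. Genotype estimates under either treatment share libraries with it. The values were 0.32 for Cux2, 0.31 for Rasgrf2, 0.29 (SE 0.19) for Rorb, 0.25 (SE 0.14) for Cux1, 0.09 (SE 0.10) for Calb1 and 0.04 (SE 0.06) for Lamp5. Only Cux2 and Rasgrf2 had groups that did not overlap, both higher, as did 9.72% of all genes in that direction. In wild type the median of the 6 genes was 0.05 against 0.005 over all genes, and the groups of 1 gene, Cux2, lay lower without overlap, against 8.23% of all genes. Under vehicle, the genotype estimates had a median of -0.11 against 0.004, with Cux2 and Rasgrf2 lower without overlap, as were 14.1% of all genes. Under clozapine the median was 0.07 against -0.005. There Cux2 was higher in the labelled knockout without overlap, as was Rasgrf2 by a narrow margin (261 against 260.2 CPM, log2 0.04), a pattern of 11.8% of all genes. The 6 genes carry the same layer label, but their groups did not separate alike. The Cux2 estimates for clozapine had opposite signs in the 2 genotypes, and Rasgrf2 had 1 low group. The groups of Cux1, Rorb, Lamp5 and Calb1 overlapped. All 6 interaction estimates were above 0, as were 48.5% of those of all genes. They ranged from 0.006 (SE 0.15) for Calb1 to 0.61 for Cux2. The interaction contains the contrast for which the list was put forward, so this count too was shaped by the choice. Differences between the genes were not tested.

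Per kilobase of exon, the order of levels was Lamp5, Calb1, Rasgrf2, Cux2, Cux1 and Rorb. Lamp5 was at 139 ± 6.99 CPM per kilobase (SD over 12 libraries), far above Calb1 at 32.8 ± 3.16 and Rasgrf2 at 26.7 ± 2.51, whose ranges overlapped. Cux2 followed at 17.4 ± 2.12, below Rasgrf2 in every library, since its highest value, 20.6, was under the lowest of Rasgrf2, 22.2. Cux1 at 6.52 ± 0.846 and Rorb at 5.79 ± 0.964 had overlapping ranges. Cux1 was at a lower level per length than Cux2 in all 12 libraries. These lengths are of all annotated exons together (20024 bases for Cux1, 10082 for Cux2), so a gene with many alternative exons is placed too low by this measure.

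Cux1 and Rorb varied together across libraries. Over the 12 libraries their log2 CPM correlated at r = 0.91 (Spearman's rho 0.87), and at 0.90 after group means were removed. Without the 2 libraries farthest from the median of Cux1, r was 0.83. Wild-type clozapine 2 was high for both genes (161 and 82.6 CPM) and labelled knockout vehicle 4 was low for both (106 and 47.0 CPM). Calb1 correlated with Rorb at 0.69 and with Cux1 at 0.61. The correlations of Cux2 with the other members were 0.62 with Rasgrf2, 0.58 with Lamp5, 0.48 with Cux1, 0.42 with Rorb and 0.12 with Calb1. The Cux2 and Rasgrf2 value was 0.76 within groups, and 0.38 without the 2 libraries farthest from the Cux2 median. These 15 correlations are descriptions of points that share library depth, dissection and composition.

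**Figure D3:**
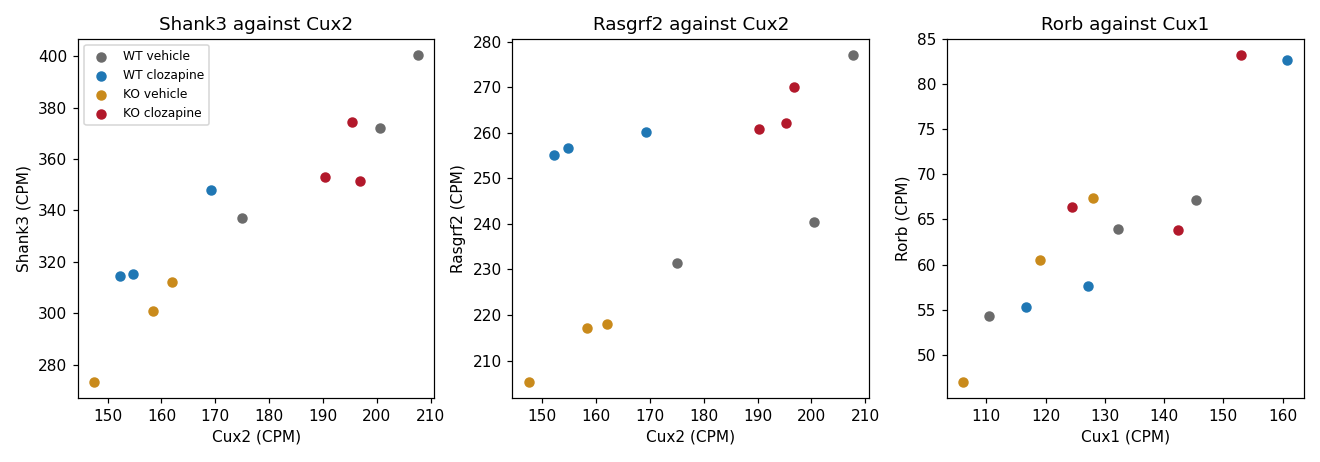
CPM of pairs of genes in the 12 libraries, coloured by group, with r computed on log2 CPM. Cux1 and Rorb follow each other (r = 0.91, and 0.90 within groups), and Cux2 and Shank3 do so too (r = 0.93).

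Other genes of layers 2 and 3 and of callosal neurons, from a list of 14, were lower in vehicle-treated labelled knockout libraries for a few members. Inhba, Otof and Mdga1 fell, 3 of 14, none rose, and 11 of 14 estimates were below 0, with a median of -0.14 against 0.004 over all genes. Over all genes 9.16% passed in this comparison, 5.15% in the lower direction. Otof, which encodes otoferlin and marks layer 2 and 3 neurons, had 25.03, 27.0 and 28 CPM for wild type against 16.7, 20.6 and 15.7, a log2 difference of -0.60 (SE 0.10, adjusted p = 0.00235, edgeR). Inhba, a subunit of activin, was at 8.97, 8.88 and 5.47 CPM against 3.47, 3.61 and 2.39, a difference of -1.31 (SE 0.22, adjusted p = 0.00302). The groups of both genes were apart. Mdga1, an adhesion molecule of upper-layer neurons, was at 26.4, 28.3 and 20.8 CPM against 18.0, 19.3 and 14.7, a difference of -0.54 (SE 0.14, adjusted p = 0.0311). Its call was lost without wild-type vehicle 1 (adjusted p = 0.0925) or 3 (0.128) and without labelled knockout vehicle 2 (0.075) or 5 (0.109), and without the low-count filter (0.079). Of 9 markers of striatal projection neurons, 2 were lower past the threshold in the same comparison, among them Pde10a (log2 -0.95, SE 0.21, adjusted p = 0.0235, edgeR). Pde10a was at 95.3, 94.1 and 77.6 CPM against 45.6, 53.4 and 39.3, and it lost its call without wild-type vehicle 1 (0.0703) or 3 (0.0854) and without labelled knockout vehicle 2 (0.0765) or 5 (0.0859). The striatal list summed to 306 to 375 CPM in wild-type vehicle, 280.2 to 341 in wild-type clozapine, 285 to 301 in labelled knockout vehicle and 289 to 347 in labelled knockout clozapine. Their part in the upper-layer differences was not tested.

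In wild type under clozapine, 13 of these 14 genes had estimates below 0 (median -0.10), with wild-type vehicle libraries as the shared reference of this and the previous comparison. None passed in edgeR, against 0.816% of all genes. An unadjusted p under 0.05 was found for 5 of 14 (11.6% of all genes), and DESeq2 called 2 (1.67% of all genes). The smallest p-values were those of Inhba (4.25, 5.40 and 3.76 CPM under clozapine, log2 -0.80, SE 0.21, adjusted p = 0.117, edgeR) and Otof (18.9, 19.7 and 23.6 CPM, log2 -0.36, SE 0.10, adjusted p = 0.126). Both had clozapine libraries below all vehicle libraries. Without wild-type vehicle 1, 9 of the 14 estimates were below 0 and the median was -0.06, while leaving out vehicle library 3 or 4 of that genotype gave -0.16, and leaving out clozapine library 2 or 5 gave -0.19 or -0.15.

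In the labelled knockout under clozapine, 13 of the 14 estimates were above 0, with a median of 0.12. None passed in edgeR's test, against 0.0231% of all genes. An unadjusted p under 0.05 was found for 3 of 14 (12.2% of all genes), and DESeq2 called 1 (1.59% of all genes). Unc5d, a netrin receptor of layer 4 and upper-layer neurons, had the smallest p (log2 0.39, SE 0.12, adjusted p = 0.206), followed by Otof (0.26, SE 0.10, adjusted p = 0.315). Unc5d groups did not overlap, and those of Otof did. After the length and GC correction 11 of 14 estimates were above 0, with a median of 0.09.

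Between genotypes under clozapine, 11 of 14 estimates were above 0 (median 0.04), but 7 were above and 7 below after the length and GC correction, with a median of 0.01. Leaving out clozapine library 2 or 5 of wild type moved the median to 0.07 or 0.11, and it was 0.01, 0.08 and 0.10 without labelled knockout clozapine 3, 4 and 5. None passed in edgeR, against 2% of all genes. An unadjusted p under 0.05 was found for 4 of 14 (15.9% of all genes), and DESeq2 called 2 (3.24% of all genes). Wfs1, which encodes wolframin of the endoplasmic reticulum, had the smallest p (log2 0.49, SE 0.12, adjusted p = 0.0534), and Unc5d the next (0.44, SE 0.12, adjusted p = 0.0873). The interaction estimates were above 0 for 13 of 14 genes, with a median of 0.29 and a range of medians from 0.26 to 0.36 when any 1 library was left out. None passed in edgeR, against 0.654% of all genes. An unadjusted p under 0.05 was found for 7 of 14 (13.6% of all genes), and DESeq2 called 2 (2.05% of all genes). Otof (0.62, SE 0.15, adjusted p = 0.0675) and Stard8 (0.32, SE 0.08, adjusted p = 0.1004) had the smallest p-values.

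Averaged over treatments, Wfs1 was higher in the labelled knockout (log2 0.34, adjusted p = 0.0205), and Inhba (-0.73, adjusted p = 0.0102) and Otof (-0.29, adjusted p = 0.0183) were lower, by edgeR. Over all genes 5.52% were higher and 5.01% lower in this comparison. The Wfs1 call was lost without wild-type clozapine 3 (adjusted p = 0.0554) and without the low-count filter (0.0653), and that of Otof without labelled knockout clozapine 3 (0.0529).

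The 5 other layer 4 genes gave estimates below 0 in all 5 for the genotype difference under vehicle, with a median of -0.39. Kcnh5, a voltage-gated potassium channel gene, fell by 0.46 on the log2 scale (SE 0.13, adjusted p = 0.0383, edgeR), 1 of 5 against 5.15% of all genes, while Scnn1a, a sodium channel subunit gene expressed in layer 4, was at -0.49 (SE 0.17, adjusted p = 0.0773). The Kcnh5 call was lost without any of 8 libraries, with adjusted p-values from 0.0537 to 0.149, and without the low-count filter (0.111). Clozapine estimates were below 0 for 5 of 5 in wild type (median -0.19) and above 0 for 3 of 5 in the labelled knockout (median 0.19). The wild-type median was -0.09 without vehicle library 3 of that genotype, with 3 of 5 below 0, and -0.33 without vehicle library 4. It was -0.40, -0.10 and -0.11 without wild-type clozapine 2, 3 and 5. The labelled knockout median was 0.13, 0.12 and 0.34 without its vehicle libraries 2, 4 and 5, and 0.07 without its clozapine library 5. None passed in either by edgeR, 0 and 1 had an unadjusted p under 0.05, and DESeq2 called 0 and 1. Over all genes in these 2 comparisons, 11.6% and 12.2% had such a p and DESeq2 called 1.67% and 1.59%. In the labelled knockout, Kcnh5 was highest in rank at 0.69 (SE 0.12, adjusted p = 0.0728).

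**Figure D4:**
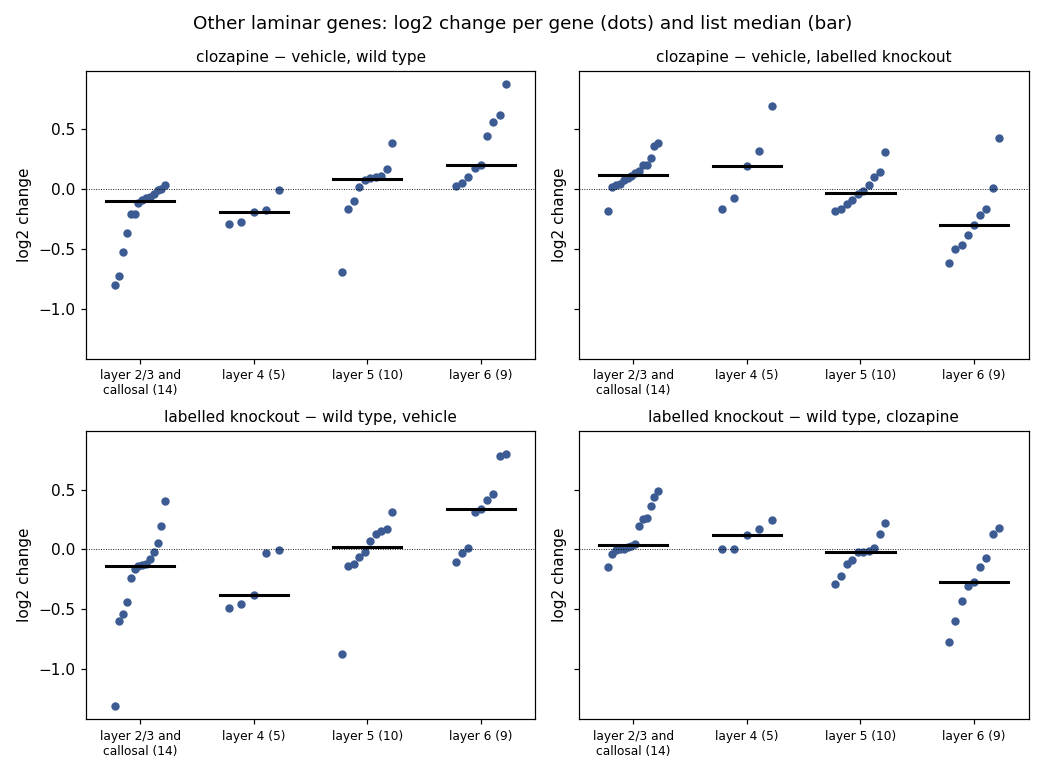
Log2 change (y axis) of each gene of 4 laminar lists (x axis, number of genes in brackets) in 4 comparisons, with the list median as a bar. In the labelled knockout under clozapine the layer 2 and 3 median is 0.12 and the layer 6 median -0.30. In wild type under clozapine they are -0.10 and 0.20.

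Genes of the deep layers were described by the same counts. Of 9 layer 6 genes, 2 rose and none fell in the labelled knockout under vehicle, where 4.01% of all genes rose. Ntsr1, the neurotensin receptor of corticothalamic neurons, had 1.79, 3.69 and 3.65 CPM for wild type against 5.06, 5.48 and 5.47 CPM (log2 0.80, SE 0.19, adjusted p = 0.0162, edgeR). Rprm, known as a p53-induced cell cycle inhibitor and a layer 6 marker, was at 16.2, 22.7 and 27.9 CPM against 38.2, 38.5 and 38.4 CPM (0.78, SE 0.18, adjusted p = 0.0230). The groups of both genes were apart. The Rprm call was lost without wild-type vehicle 3 (adjusted p = 0.0826) and without labelled knockout vehicle 2 (0.0659), 4 (0.054) or 5 (0.0709), and without the low-count filter (0.0558). The Ntsr1 call was lost in a fit of only the 2 groups compared (0.0553).

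Under clozapine, layer 6 estimates were above 0 for 9 of 9 genes in wild type (median 0.20) and below 0 for 7 of 9 in the labelled knockout (median -0.30). None passed by edgeR in either, against 0.816% and 0.0231% of all genes. An unadjusted p under 0.05 was found for 2 and 3 of the 9, against 11.6% and 12.2% of all genes. DESeq2 called 1 in each, against 1.67% and 1.59%. Rprm had the smallest p in both, at 0.88 (SE 0.18, adjusted p = 0.0558) and -0.50 (SE 0.17, adjusted p = 0.274). Wild-type vehicle 1 weighs on the wild-type count: its layer 6 genes lay 0.68 log2 units below their mean over libraries, and without it 4 of 9 estimates were below 0 and the median was 0.05. Leaving out vehicle library 3 or 4 of wild type instead gave medians of 0.37 or 0.35. The interaction estimates were below 0 for 9 of 9 layer 6 genes, with a median of -0.56, and for 8 of 9 with a median of -0.37 without wild-type clozapine 3. The interaction for Rprm passed, 1 of 9, against 0.127% of all genes in the lower direction (-1.38, SE 0.25, adjusted p = 0.0425, edgeR), but the call was lost without any of 10 libraries (0.0639 to 0.107), without the low-count filter (0.0673) and after the length and GC correction (0.0688). All 9 estimates remained below 0 after that correction, with a median of -0.59.

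The 10 layer 5 genes were divided, with 5 estimates above 0 and 5 below for the genotype difference under vehicle. Qrfpr, a neuropeptide receptor gene, fell by 0.88 (log2, SE 0.21, adjusted p = 0.0177, edgeR), 1 of 10 against 5.15% of all genes in that direction. It lost its call without wild-type vehicle 1 (0.0698) or 3 (0.0878) and without labelled knockout vehicle 2 (0.0708) or 4 (0.0553). Layer 5 estimates for clozapine had medians of 0.09 in wild type and -0.03 in the labelled knockout, and both changed sign with the libraries used. Leaving out vehicle library 1 or clozapine library 3 of wild type gave medians of -0.04 or -0.10. The labelled knockout median was 0.09 without its vehicle library 4 and 0.04 without its clozapine library 5. None passed by edgeR, against 0.816% and 0.0231% of all genes. An unadjusted p under 0.05 was found for 2 and 0 of the 10, against 11.6% and 12.2% of all genes. DESeq2 called 1 and 0, against 1.67% and 1.59%.

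Genes shared by excitatory neurons of all layers gave 1 call in these comparisons. Camk2a, which encodes the alpha subunit of calcium/calmodulin-dependent kinase II, was higher in labelled knockout clozapine (4378, 4403 and 4610 CPM) than in wild-type clozapine (3751, 3705 and 3687 CPM), by 0.27 on the log2 scale (SE 0.06, adjusted p = 0.0377, edgeR). It was 1 of 8, where 1.48% of all genes were higher. This call was lost without any of the 6 clozapine libraries (0.07 to 0.125) and after the length and GC correction (0.0749). The summed level of the 8 excitatory neuron genes was 9095 to 10030 CPM in wild-type vehicle, 8677 to 8925 in wild-type clozapine, 8619 to 9456 in labelled knockout vehicle and 9807 to 10170 in labelled knockout clozapine. Interneuron genes (18) summed to 1748 to 1866, 1701 to 1719, 1712 to 1834 and 1809 to 1870 CPM in the same order. These ranges run in the order of the Cux2 means for clozapine in both genotypes. The excitatory sums rest mostly on Camk2a, Nrgn and Slc17a7, with group means of at least 3715, 2641 and 1566 CPM. Gene by gene, interaction estimates were above 0 for 5 of 8 excitatory genes (median 0.05) and 13 of 18 interneuron genes (0.09), against 48.5% of all genes. The part of these genes in the Cux2 pattern was not tested.

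Among glia, the 9 astrocyte genes summed to 4193 to 4649, 4117 to 4420, 3951 to 4396 and 4112 to 4642 CPM, with overlap throughout. The 9 oligodendrocyte genes summed to 1735 to 2053, 1831 to 2278, 1710 to 1932 and 1421 to 1972 CPM, also overlapping. Their estimates for clozapine were above 0 for 7 of 9 in wild type (median 0.13) and below 0 for 8 of 9 in the labelled knockout (-0.10). All 9 were below 0 for the genotype difference under clozapine (median -0.25) and for the interaction (-0.23 against -0.007 over all genes), as were the layer 6 interaction estimates. None of the 9 passed for the interaction by edgeR, against 0.654% of all genes. The sums of the 8 microglia genes did not overlap between genotypes under vehicle. They were 310 to 350 CPM in wild type and 356 to 375 CPM in the labelled knockout, against 319 to 343 and 312 to 375 CPM under clozapine. Gene by gene, 6 of the 8 estimates under vehicle were above 0 (median 0.17 against 0.004 over all genes), and groups of some, such as Cx3cr1 and Tmem119, overlapped. The part of oligodendrocyte and microglia genes in the upper-layer differences was not tested. Ermn, a myelin gene, was lower in the labelled knockout under clozapine (log2 -0.71, adjusted p = 0.0212, edgeR), 1 of 9 against 0.515% of all genes in that direction, a call lost without wild-type clozapine 3 (0.0719), labelled knockout clozapine 3 (0.0722) or 5 (0.0612).

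Across the 12 libraries, Cux2 ran with upper-layer genes and opposite to layer 6 genes. Correlations with Cux2 were above 0 for 13 of 14 other layer 2 and 3 genes (median 0.51), 5 of 5 layer 4 genes (0.55), 2 of 10 layer 5 genes (-0.27) and 0 of 9 layer 6 genes (-0.57), the lowest of which was Rprm at -0.85. The median over 11193 genes with a mean of at least 5 CPM was 0.03, and 5% of them were above 0.61. After the length and GC correction the medians were 0.47, 0.54, -0.48 and -0.67. Excitatory neuron genes gave 5 of 8 above 0 (0.10), interneuron genes 15 of 18 (0.14), astrocyte genes 9 of 9 (0.28) and oligodendrocyte genes 0 of 9 (-0.35). Cux1 differed from Cux2 here, with a median of 0.10 for the layer 2 and 3 genes, 0.65 for the layer 4 genes and -0.65 for the layer 5 genes. Lamp5, whose groups overlapped throughout, had medians of 0.42 with layer 2 and 3 genes and -0.68 with layer 6 genes. The libraries share 1 composition, in which a larger share of some genes lowers that of others, and no test was made.

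**Figure D5:**
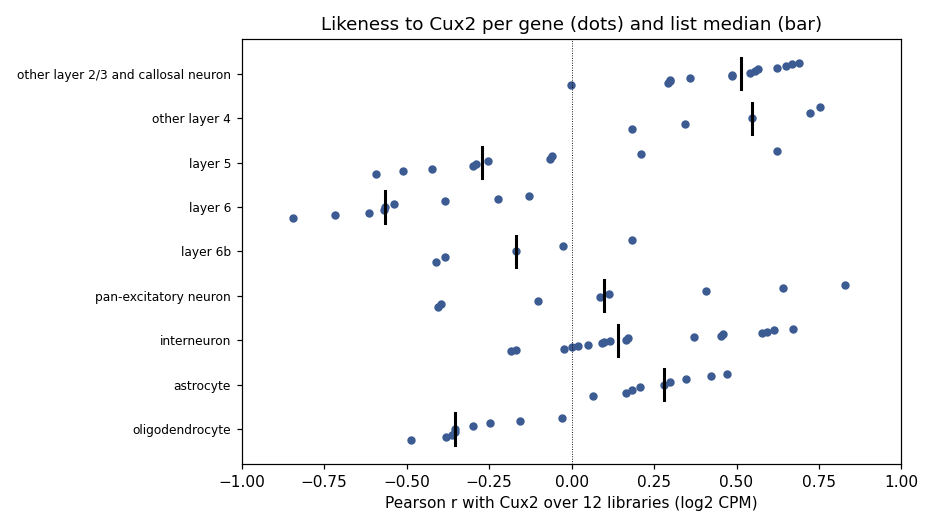
Pearson correlation with Cux2 of log2 CPM over 12 libraries (x axis) for each gene of 9 lists (y axis), with the list median as a bar. Layer 2 and 3 genes have a median of 0.51 and layer 6 genes of -0.57.

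Among the 11193 genes, those most like Cux2 over the 12 libraries included Shank3, Eln, Hpca, Gsg1l and Heg1, with r from 0.93 to 0.89. Shank3, a scaffold of excitatory synapses, had r = 0.93 (rho 0.90), also 0.93 within groups, and 0.86 after the length and GC correction. It stood at 370 ± 31.8 CPM (SD, n = 3) in wild-type vehicle, 326 ± 19.2 in wild-type clozapine, 296 ± 19.97 in labelled knockout vehicle and 360 ± 12.8 in labelled knockout clozapine. Hpca, which encodes the neuronal calcium sensor hippocalcin, had r = 0.90 but 0.26 within groups, so its likeness lay mainly between group means: 730 ± 1.02, 652 ± 13.4, 644 ± 17.4 and 735 ± 27.0 CPM in the same order. Eln, the elastin gene, had 0.58 within groups, and Gsg1l, an AMPA receptor auxiliary subunit gene, and Heg1 had 0.81 and 0.75. The lowest correlations were those of Glrx2 (-0.95), which encodes a mitochondrial glutaredoxin, Psip1 (-0.91), and the RNA-binding protein genes Hnrnpl (-0.89) and Hnrnpa1 (-0.89). Glrx2 was at 52.4 ± 1.66, 60.3 ± 4.19, 62.0 ± 0.934 and 53.0 ± 1.44 CPM. These genes were picked from the extremes of many correlations, so their values describe these libraries.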

How the data were processed

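RNA of 12 libraries, 3 in each of 4 groups, was sequenced from Illumina mRNA libraries. The submitters' processing notes name STAR 2.5.1b, featureCounts and the build GRCm38. The authors deposited estimated counts per gene, of which 7.4% are not whole numbers, and they were rounded for the tests. Whether strand was used and how reads of several genes were shared is not given in the sources used here, so values of overlapping genes are uncertain. Symbols, exonic lengths and GC content came from GENCODE release 21 without the version of the identifier, which named 46574 of 47069 genes. The filterByExpr function kept 17286 genes with 99.9% of counts. CPM are counts over TMM-scaled library sizes, and correlations use log2 CPM with a prior count of 2.

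All contrasts come from 1 robust quasi-likelihood fit of 4 group means in edgeR 4.0.16 (R 4.3.3), with Benjamini-Hochberg adjustment over all tested genes and a threshold of 0.05. The labels give group and number only, so a p-value reflects only the spread among libraries, which may be technical. The 6 genes and the lists were chosen with earlier results of these data known. From each list and comparison described, the text names at most 4 genes past the threshold, ranked by p, or the leading 2 if there are none. The genes most like Cux2 are the 6 highest and 4 lowest by Pearson's r, leaving out predicted genes, clones and pseudogenes. Results for some genes under these rules are not reported here. The listed genes Six3, Eomes, Tbx21 and Dsp had too few counts to be tested, and Smim32 had no matching row. Alternatives were DESeq2 1.42.0, limma-voom (limma 3.58.1), RLE factors, no filter, a mean of at least 1 CPM, unrounded counts, a replicate block, a length and GC correction (mgcv 1.9.3), leaving out each library and fits of the 2 groups compared. Applying them to list counts and correlations was decided after seeing the data. The fits were tested on simulated data with known changes.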

Additional observations from a re-analysis of the deposited data

Results flagged for a closer look

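Genes whose clozapine libraries all lay on one side of the vehicle libraries in wild type and all on the other side in the labelled knockout are listed here with their interaction, the difference between the 2 clozapine effects in log2 units (labelled knockout less wild type). The difference was not tested for those among them that were chosen for Cux2 or for likeness to it, and the choice made them likely to meet this condition. For Cux2 the interaction was 0.61, from -0.29 and 0.32. For Eln it was 1.04, for Hpca 0.36, for Glrx2 -0.43, for Psip1 -0.28 and for Hnrnpl -0.28. For Camk2a the opposite directions (-0.18 and 0.19) gave 0.36, which did not pass edgeR's test of the interaction (adjusted p = 0.0704). For Rprm the interaction of -1.38 passed that test, with an adjusted p of 0.0425, a call lost without any of 10 libraries (0.0639 to 0.107), without the low-count filter (0.0673) and after the length and GC correction (0.0688).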

How the results depend on the processing

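None of the tests on the 6 genes passed under any alternative run, with a smallest adjusted p of 0.0769, for the average genotype difference of Rasgrf2 (edgeR). Differences near 0 changed sign. With a replicate block, the average genotype difference was 0.026 for Cux2 and 0.024 for Lamp5, and clozapine in wild type was -0.032 for Cux1 and -0.17 for Rorb. With the length and GC correction, the average genotype difference of Cux1 was 0.019 and the average clozapine difference of Cux2 was -0.004. Interactions moved to 0.47 for Cux2 and -0.009 for Cux1 with that correction, and with the block to 0.39 for Cux1, 0.19 for Rasgrf2 and 0.60 for Rorb. Without 1 library each, average genotype differences ranged from -0.046 to 0.015 for Cux2, -0.088 to 0.032 for Cux1, -0.039 to 0.13 for Rorb and -0.031 to 0.021 for Lamp5, and the average clozapine difference of Cux2 from -0.027 to 0.035. Clozapine in wild type ranged from -0.09 to 0.15 for Cux1, -0.01 to 0.13 for Rasgrf2, -0.14 to 0.18 for Rorb and -0.002 to 0.20 for Calb1, and the Rasgrf2 interaction from 0.18 to 0.31. The cause was not tested.

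Counts of genes past the threshold varied more. Clozapine in wild type gave 141 genes, with DESeq2 288, no filter 304, the block 18, only the 2 groups 92, and 20 to 219 without 1 library. Clozapine in the labelled knockout gave 4, with DESeq2 274, no filter 213, the block 174, voom, RLE factors and the GC correction 2 each, the 2 groups 7, and 0 to 25 without 1 library. The genotype difference gave 1584 under vehicle (block 385, without 1 library 617 to 1722) and 345 under clozapine (DESeq2 560, no filter 566, without 1 library 59 to 425). The interaction gave 113 (DESeq2 354, no filter 302, block 12, GC correction 43, without 1 library 13 to 181). The average clozapine difference gave 26 (DESeq2 166, voom 7, no filter 157, block 61, without 1 library 2 to 24), and the average genotype difference 1821 (1152 to 1870 without 1 library).

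Same-numbered libraries of different groups correlated at -0.08 to 0.12 in their deviations from group means, with 1 of 10 pairs over 0.1, and 3 of 11 libraries correlated best with their own number. These values gave no clear sign of pairing by number, but with 3 libraries a group they cannot exclude it. Losses of calls given elsewhere in the text leave the replicate block aside. With it, the edgeR calls under vehicle of Mdga1, Kcnh5, Qrfpr, Ntsr1, Rprm, Pde10a, C1qb, Tek and Slco1a4 were lost. So were that of Ermn under clozapine and the interaction of Rprm, while Inhba and Otof kept their calls under vehicle. With 3 libraries a group, the intervals for Cux1 and Rorb are wide, and counting error is small beside the spread between libraries, since the lowest count of the 6 genes was 1134.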

Other observations

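Other genotype differences appeared among markers of cells outside the upper layers. In labelled knockout libraries under vehicle, 2 of 8 listed microglial genes were higher by edgeR's quasi-likelihood test, where 4.01% of all genes were, among them the complement gene C1qb (log2 0.32, adjusted p = 0.0246), whose call was lost without wild-type vehicle 1 (0.0747) or 3 (0.118) or labelled knockout vehicle 2 (0.0573) or 5 (0.0865). Of 6 endothelial genes, Tek was lower (-0.38, adjusted p = 0.0156) and Slco1a4 higher (0.35, adjusted p = 0.0248), against 9.16% of all genes in either direction. The Tek call was lost without wild-type vehicle 1 (0.0758) or 3 (0.064) or labelled knockout vehicle 4 (0.0506), and the Slco1a4 call without any of 5 libraries (0.0535 to 0.111). Averaged over treatments, Cdhr1, a photoreceptor and olfactory bulb cadherin gene, was higher by 0.93 (adjusted p = 0.00111). It was 1 of 3 tested olfactory bulb genes, where 5.52% of all genes were higher. The estimate for Doc2g, another of these 3, was below 0 at -0.39 and did not pass. In the same comparison Efna5, an ephrin gene with area-specific cortical expression, was lower by 0.23 (adjusted p = 0.00771). It was 1 of 9 cortical area genes, where 5.01% of all genes were lower. Cdhr1 was at 1.60 to 2.38 CPM in the 6 wild-type libraries and 2.33 to 4.66 CPM in the 6 labelled knockout libraries. The average differences of Cdhr1 and Efna5 passed under all 20 alternatives run.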
